A study of Mus musculus with 24 samples.

Results

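The genes examined were 9 that mark spinal motor neurons or cholinergic nerve endings, namely Chat, Slc18a3, Slc5a7, Ache, Mnx1, Isl2, Lhx3, Chodl and Esrrg. They were taken by the gene name that the array files give to each probe, which found all 9 among 37074 names, on 21 of 56605 gene probes. Of these, 8 genes and 13 probes passed a filter on dim probes and were tested, and Mnx1 did not pass. Each gene is described through the probe with the highest mean over the 24 arrays, with its other probes as a check.

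Ventral root tissue, which carries efferent nerve fibres (EN), and dorsal root tissue, which carries afferent ones (AN), came from C57BL/6 mice at 4 ages (P0 or 1, 3 or 5 weeks, written 1 W, 3 W and 5 W), dissected where the roots leave the L4 to L6 segments of the spinal cord. Both sexes were used, and no treatment, transgene or other allele is described for any group. There were 9 animals per time point, whose fibres were pooled by group, and 3 arrays in each of the 8 groups, which the submitters describe as independent experiments. If arrays of a group shared a pool, their p-values measure technical spread only. Values are the log2 values of the authors' deposited quantile normalized table, in which a difference of 1 is a 2-fold change.

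Acetylcholine is the transmitter with which motor neurons drive muscle. Choline enters the nerve ending through the transporter encoded by Slc5a7, choline acetyltransferase (Chat) joins it to acetate, the vesicular transporter encoded by Slc18a3 loads the product into vesicles, and acetylcholinesterase (Ache) breaks it down after release. Mnx1, Isl2 and Lhx3 encode homeodomain factors that direct embryonic cells to a motor neuron fate, Chodl encodes a membrane lectin of fast motor neurons, and Esrrg encodes an orphan nuclear receptor of gamma motor neurons. Motor neuron cell bodies lie inside the spinal cord and sensory cell bodies in the dorsal root ganglia, and a root holds axons, Schwann cells and connective tissue. Isl2, Ache and Esrrg are not confined to motor neurons, and Isl2 is also made by developing sensory neurons.

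None of the 8 tested genes was called higher in EN than in AN at any time point through its main probe, while a further Lhx3 probe was. Averaged over the 4 time points, 3 of the 8 were called lower in EN (Isl2, Ache and Chodl) at an adjusted p below 0.05, against 19.4% of all tested probes called in either direction and 9.13% called lower. The median difference of the 8 genes was -0.51, and that of all tested probes 0.03. The 2 largest differences were those of Isl2 (-2.73, SE 0.53, adjusted p = 0.00118, 6.65-fold) and Ache (-2.33, SE 0.38, adjusted p = 0.000244). Part of the EN values of Ache after P0 were not above background, and with another background correction of the scanner signals (normexp) its mean difference was -1.14, still called. EN was lower in 10 of 12 pairs of a replicate number for Isl2 and in 11 of 12 for Ache. Without AN replicate 3 at 3 W, the mean differences were -2.31 for Isl2, -2.08 for Ache and -0.61 for Chodl, all called (adjusted p = 0.000262, 0.000124 and 0.0404). Slc18a3, which with Chat and Slc5a7 is the most specific to cholinergic cells, differed by 0.46 in the opposite direction and was not called (adjusted p = 0.122).

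The arrays had 55.1% to 71.7% of their gene spots well above background, and no spot was saturated. They lay on 4 slides in 3 scan batches, and all 6 arrays at 3 W shared a slide with no other time point but replicate 3 at 5 W. With slide or scan batch as a block, 3 W was thus compared with P0 only through those 5 W arrays. EN and AN arrays of a replicate number always shared a slide. AN replicate 3 at 3 W had a mean r of 0.961 to the other arrays of its group across probes. This was little below the values for replicate 3 at 5 W (0.963 in EN and 0.964 in AN). It stood apart by the highest level of nerve cell transcripts of all arrays. The summed level of 6 pan-neuronal transcripts (log2 of the sum) was 19.44 on it, against 15.68 and 15.20 on the other AN arrays at 3 W. The lowest sum was 14.65, on AN replicate 3 at 5 W. Member calls that changed without AN replicate 3 at 3 W are given both ways. All 8 groups shared 1 estimate of the spread, so leaving this array out also changed p-values of comparisons that did not use it. Of 112 member values, 9 gained and 0 lost a call without it. For the lists of other genes, some sensory neuron and cholinergic pathway results are given both ways, and the rest only with it.

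Sequences are shown where a probe's target decides what its value can mean. Chat has 6 probes that did not behave alike. The brightest lies at the 3′ end of the transcript (mm9 chr14:33221421-33221480, minus strand) and ends in a simple repeat. Its last 23 bases, with 5 copies of gaaa, were agaaagaaagaaagaaagaaaga. Only 7 gene probes of the array hold a 16-base run of that repeat in any phase (0.0124% of them), and no other probe of the 9 genes does. The other Chat probes measure transcript parts nearer the 5′ end, and 4 of them span more of the genome than their 60 bases, as a probe across a splice junction does. The 2 shown were above background on the most arrays.
A_55_P2744606 (mm9 chr14:33267898-33271815, minus strand): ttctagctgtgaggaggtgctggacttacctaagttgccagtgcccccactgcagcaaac
A_55_P2744601 (mm9 chr14:33260120-33262143, minus strand): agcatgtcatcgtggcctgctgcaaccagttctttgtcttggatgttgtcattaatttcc

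The 13 promoter windows of the 9 genes (250 bases before to 50 after a start site, RefSeq annotation of GRCm38.p6) were searched on both strands for 4 short motifs. Isl2, the gene with the largest differences, held the cyclic AMP response element TGACGTCA, found in 1.79% of 32851 mouse promoters. It lies 11 bases before an annotated start site inside the span of Isl2 (chr9:55538677-55547667). The motif is in capitals in the 250 bases before that start.
Isl2 promoter (GRCm38.p6 chr9:55540899-55541148, plus strand): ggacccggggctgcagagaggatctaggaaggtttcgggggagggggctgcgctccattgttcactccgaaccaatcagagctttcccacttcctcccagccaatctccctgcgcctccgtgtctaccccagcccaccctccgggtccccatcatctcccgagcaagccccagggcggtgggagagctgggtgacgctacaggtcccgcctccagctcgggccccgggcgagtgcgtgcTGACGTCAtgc
The Lhx3 window held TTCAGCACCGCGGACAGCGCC, a match to the RE1 element bound by the neuronal repressor REST, starting 43 bases before its start (chr2:26208200-26208499, minus strand). No other promoter of the 32851 searched held this motif in full (0.00304%). The motif TATAAA was found in windows of Esrrg, Lhx3 and Slc5a7 and in 13.6% of all promoters, and TAATTA, the core of homeodomain sites, in no window of the 9 genes and in 5.29% of all. These are matches of letters only.

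Isl2 had the widest range of the members. In EN, replicates 1 to 3 had log2 values of 11.27, 11.63 and 11.94 at P0, 6.38, 6.54 and 8.35 at 1 W, 6.06, 5.60 and 6.60 at 3 W, and 5.47, 5.43 and 6.15 at 5 W. In AN they had 11.37, 13.09 and 11.24 at P0, 11.83, 12.01 and 12.60 at 1 W, 7.97, 7.88 and 13.02 at 3 W, and 9.27, 8.40 and 5.52 at 5 W. The fibres overlapped at P0, lay apart without overlap at 1 W and 3 W, and overlapped again at 5 W through AN replicate 3. At 1 W, where 4% of all tested probes were called (2.74% lower in EN), Isl2 was lower in EN by 5.06 on the log2 scale (EN minus AN -5.06, SE 1.06, adjusted p = 0.00982), a 33.3-fold difference. At P0 the difference was -0.29 (95% interval -2.52 to 1.94). At 3 W it was -3.54 (adjusted p = 0.0567), and -3.54 with adjusted p = 0.0274 when EN and AN arrays of a replicate number were paired. Without AN replicate 3 at 3 W it was -1.84 (adjusted p = 0.266), and without AN replicate 1 or 2 at 3 W or AN replicate 3 at 5 W it was called (adjusted p = 0.0314, 0.0287 and 0.0320). At 5 W it was -2.04 (adjusted p = 0.289). The call at 1 W was lost without AN replicate 3 or without EN replicate 1 at 1 W, where the highest adjusted p was 0.0632.

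Within EN, Isl2 fell by 4.52 from P0 to 1 W (adjusted p = 0.00403), by 5.52 to 3 W (adjusted p = 0.000266) and by 5.93 to 5 W (adjusted p = 0.000122), and no later EN array reached the lowest at P0. In AN the value at 1 W was 0.25 above that at P0 (adjusted p = 0.905), and a fall of 4.17 was called at 5 W (adjusted p = 0.00297). At 3 W the AN change was -2.28 (adjusted p = 0.0809), and it was called without AN replicate 3 (-3.98, adjusted p = 0.000604). On slide 3, which held 1 array of each fibre at 5 W and 2 at P0, the difference at 5 W was -6.35 in EN and -3.77 in AN. Within scan batch 3, with 1 array of each fibre at each of these ages, it was -5.79 and -2.10. The further loss in EN at 1 W beyond that in AN, tested as an interaction, was -4.77 (SE 1.50, unadjusted p = 0.00516) but did not pass the adjustment (adjusted p = 0.314). Without AN replicate 3 at 3 W it did (adjusted p = 0.0242).

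**Figure D1:**
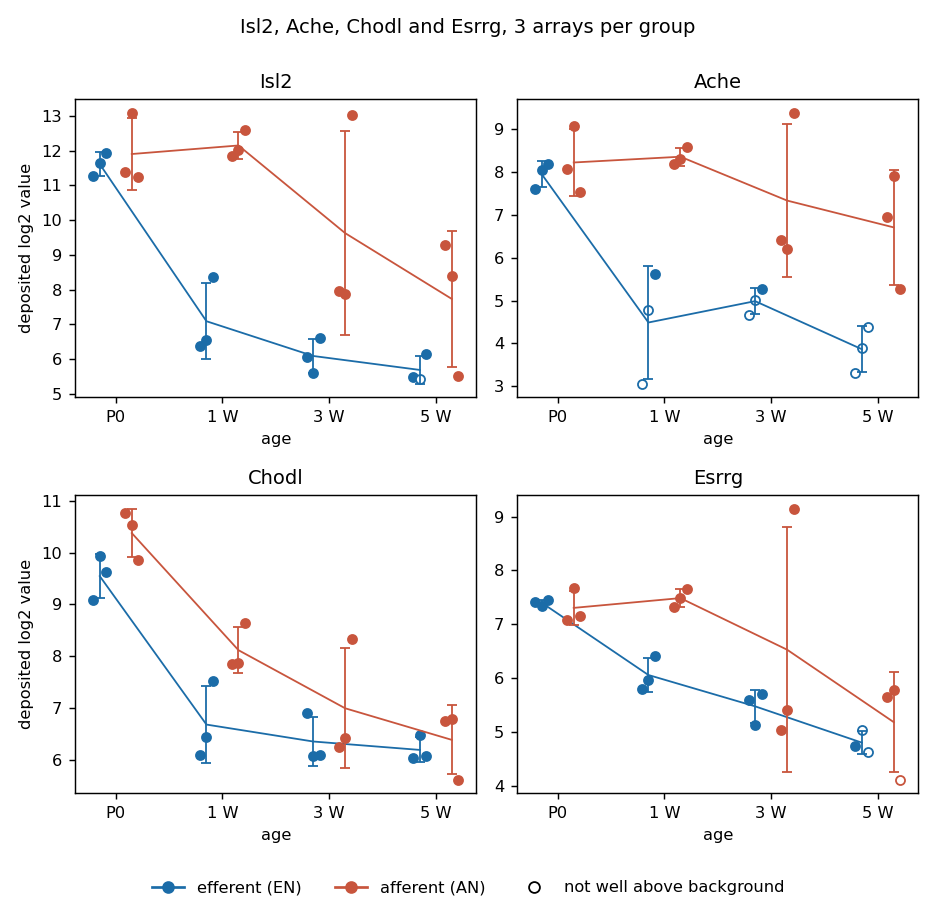
Deposited log2 values of Isl2, Ache, Chodl and Esrrg by age, with 1 point per array, lines through the group means and bars of 1 SD (n = 3); open points were not well above background. EN fell between P0 and 1 W in the panels of Isl2, Ache and Chodl, and AN replicate 3 at 3 W is the highest point of its age in all 4 panels (13.02 for Isl2).

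Ache followed a like course. In EN it had 7.62, 8.05 and 8.20 at P0, 3.06, 4.79 and 5.62 at 1 W, 4.66, 5.02 and 5.28 at 3 W, and 3.31, 3.90 and 4.39 at 5 W. In AN it had 8.06, 9.07 and 7.54 at P0, 8.19, 8.30 and 8.59 at 1 W, 6.42, 6.20 and 9.39 at 3 W, and 6.95, 7.92 and 5.26 at 5 W. The fibres overlapped at P0 and at no later age. Ache was well above background on all 12 AN arrays, but in EN after P0 only on 1 of 3 arrays at 1 W, 1 of 3 at 3 W and none at 5 W. At 1 W Ache was lower in EN with a difference of -3.87 (SE 0.76, adjusted p = 0.00689), a size that rests on 1 measured EN array and became -1.97, still called, after normexp. At 5 W, where 6.76% of all tested probes were called (3.52% lower in EN), it was lower with -2.84 (adjusted p = 0.0282) and the only member called. Since EN was not above background there, AN was at least 3.18-fold higher, measured against the lowest signal that counted as above background on each EN array. At 3 W, where 5.89% of probes were called, 0 of the 8 genes was called by limma (2 at an unadjusted p below 0.05) and Ache had -2.35 (adjusted p = 0.0765). With EN and AN arrays paired it was called (-2.35, adjusted p = 0.0403), as was Isl2, and without AN replicate 3 at 3 W the difference was -1.32 (adjusted p = 0.349). Leaving out AN replicate 2 at 3 W or AN replicate 3 at 5 W also gave a call (adjusted p = 0.0439 and 0.0491). The call at 1 W was lost without EN replicate 1 of that age (-3.16, adjusted p = 0.0551), and the call at 5 W without replicate 1 or 2 of either fibre at 5 W, after normexp (-1.10, adjusted p = 0.148) and in a fit of only the groups compared (-2.84, adjusted p = 0.186).

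During development Ache fell in EN by 3.46 at 1 W (adjusted p = 0.00239), by 2.97 at 3 W (adjusted p = 0.00296) and by 4.09 at 5 W (adjusted p = 0.000168), which is at least 7.52-fold against the limit of detection. After normexp these changes were -1.65, -1.51 and -1.79, all still called. No change was called in AN, with 0.13 at 1 W, -0.89 at 3 W and -1.52 at 5 W (adjusted p = 0.928, 0.341 and 0.103). Without AN replicate 3 at 3 W the falls at 3 W and 5 W were called (-1.91 and -1.52, adjusted p = 0.0245 and 0.0429), the latter also without AN replicate 2 at 5 W (-2.12, adjusted p = 0.0367). With slide as a block the EN fall at 3 W was not called (-2.33, adjusted p = 0.115), nor with scan batch as a block (-2.15, adjusted p = 0.120). The difference between the fibres in their change to 1 W was -3.60 (SE 1.07, unadjusted p = 0.00339, adjusted p = 0.275), and the adjusted p was 0.0393 without AN replicate 3 at 3 W. A further Ache probe gave the same pattern (r = 0.991 over 8 group means, which share arrays).

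Chodl fell in both fibres at every later age. In EN it had 9.08, 9.93 and 9.63 at P0, 6.09, 6.43 and 7.51 at 1 W, 6.90, 6.07 and 6.09 at 3 W, and 6.03, 6.47 and 6.06 at 5 W. In AN it had 10.76, 10.53 and 9.85 at P0, 7.85, 7.87 and 8.63 at 1 W, 6.24, 6.41 and 8.33 at 3 W, and 6.74, 6.79 and 5.61 at 5 W. No array after P0 reached the lowest P0 array of its fibre, and only at 1 W did EN and AN not overlap. From P0 to 5 W Chodl fell by 3.36 in EN and by 4.00 in AN (SE 0.49, adjusted p = 1.31e-05 and 1.76e-06). On slide 3 alone, with 1 array of each fibre at 5 W and 2 at P0, these differences were -3.31 and -3.40. The mean difference of -0.78 between the fibres (SE 0.24, adjusted p = 0.0317) was lost without any one of 11 arrays (adjusted p up to 0.0623), and -1.44 at 1 W was not called (adjusted p = 0.131; 0.0317 without AN replicate 3 at 3 W).

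Esrrg had 7.41, 7.34 and 7.45 in EN at P0, 5.80, 5.97 and 6.41 at 1 W, 5.59, 5.13 and 5.71 at 3 W, and 4.74, 5.04 and 4.63 at 5 W. In AN it had 7.08, 7.68 and 7.16 at P0, 7.32, 7.49 and 7.65 at 1 W, 5.03, 5.40 and 9.15 at 3 W, and 5.65, 5.78 and 4.11 at 5 W. The EN arrays at 1 W all lay below the AN arrays, while AN replicate 3 at 3 W was higher than any other array. Esrrg fell from P0 to 5 W by 2.60 in EN (adjusted p = 0.00368) and by 2.12 in AN (adjusted p = 0.0149), where 1 of 3 EN and 2 of 3 AN arrays were above background at 5 W. After normexp the changes were -1.39 and -1.15, both still called. The AN fall was not called without P0 replicate 2 or 5 W replicate 3, nor with slide or scan batch as a block. Its fall in EN at 3 W was called (-1.92, adjusted p = 0.0240) with -1.17 after normexp, but was not with slide or scan batch as a block (-0.99 and -0.95), nor without EN replicate 1 or 3 at P0 or replicate 2 at 3 W. No comparison of the fibres was called in the main fit, with -1.43 at 1 W (95% interval -2.87 to 0.01, adjusted p = 0.368). A fit of only the groups compared gave the same -1.43 and called it (adjusted p = 0.0107). Array weights gave -1.49 (adjusted p = 0.00803). Without AN replicate 3 at 3 W the difference at 1 W was called (adjusted p = 0.00854), as were the changes from P0 of -1.34 in EN at 1 W (adjusted p = 0.00407, against 0.159 with it) and of -2.09 in AN at 3 W (adjusted p = 0.000119, against -0.78 and 0.360 with it).

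**Figure D2:**
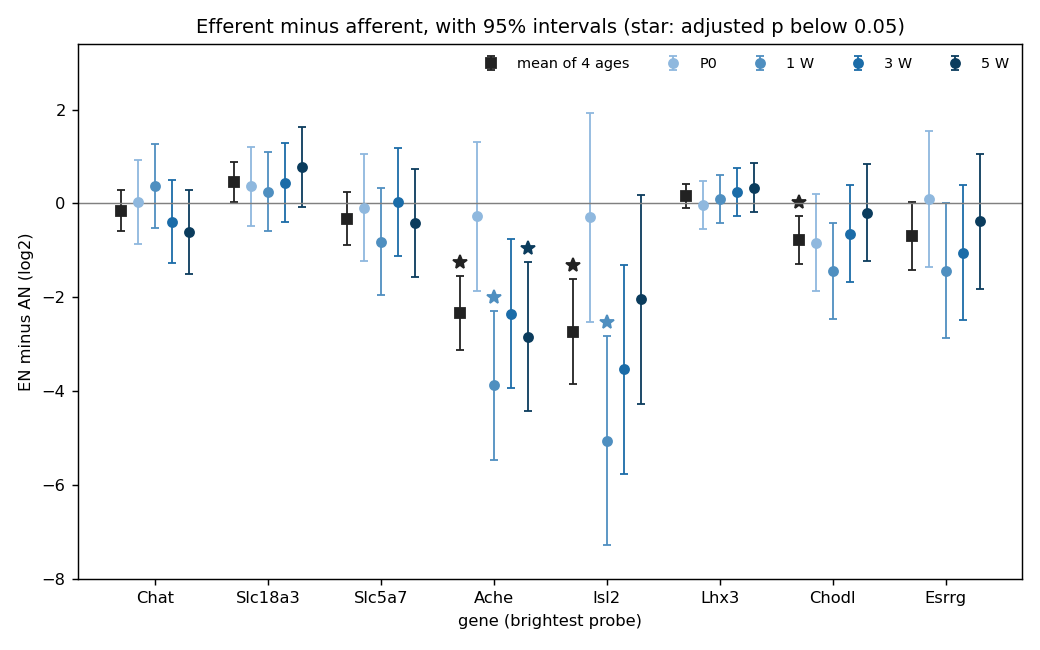
EN minus AN difference in log2 units of the 8 tested genes, as the mean of the 4 ages (squares) and at each age (circles), with 95% intervals and a star where the adjusted p was below 0.05. Stars stand only at Ache (mean, 1 W, 5 W), Isl2 (mean, 1 W) and Chodl (mean), all below 0.

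Chat, the enzyme that makes acetylcholine, was higher at 3 W than at P0 on its brightest probe and was not called different between the fibres. In EN it had 7.69, 7.66 and 7.10 at P0, 8.00, 7.02 and 8.67 at 1 W, 9.05, 8.82 and 8.85 at 3 W, and 7.63, 8.55 and 9.24 at 5 W. In AN it had 7.99, 7.13 and 7.24 at P0, 7.94, 6.93 and 7.72 at 1 W, 9.31, 9.20 and 9.36 at 3 W, and 8.54, 8.89 and 9.84 at 5 W. All arrays at 3 W lay above all arrays at P0. The rise to 3 W was 1.42 in EN (SE 0.43, adjusted p = 0.00892) and 1.84 in AN (adjusted p = 0.00146), and the rise to 5 W was 1.64 in AN (adjusted p = 0.00351) while 0.99 in EN was not called (adjusted p = 0.0576). Without EN replicate 1 at 5 W, the lowest of its group, it was 1.41 (adjusted p = 0.0119), and it was also called without EN replicate 2 or 3 at 1 W or AN replicate 3 at 5 W. The mean EN minus AN difference was -0.15 (95% interval -0.60 to 0.30).

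The Chat values at 5 W differed by slide, and with slide as a block the rise to 3 W was smaller while that to 5 W was not. At 5 W the lowest value of each fibre lay on slide 2 (7.63 and 8.54) and the highest on slide 4 (9.24 and 9.84), the slide that also held every 3 W array. With slide as a block the rise to 3 W was 0.79 in EN (adjusted p = 0.0726) and 1.21 in AN (adjusted p = 0.0100), and with scan batch as a block 0.33 and 0.74 (adjusted p = 0.650 and 0.272). Within slide 3, the value at 5 W was above the mean at P0 by 1.17 in EN and by 1.71 in AN, and within scan batch 3 the differences were -0.06 and 0.55. With slide as a block both rises to 5 W were called, with 1.12 in EN (adjusted p = 0.00158) and 1.76 in AN.

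No rise was called on the only other tested Chat probe. This junction probe, A_55_P2744606, was well above background on 11 of 24 arrays, ranged from 3.48 to 5.30 and changed to 3 W by 0.21 in EN and 0.68 in AN (adjusted p = 0.625 and 0.112). A_55_P2744601 was above background on 5 arrays and too dim to be tested, with means of 4.32 in EN and 4.93 in AN at P0 and 3.52 and 3.43 at 3 W, the opposite direction to the brightest probe. The remaining 3 probes were above background on 1 to 3 arrays. Over the 8 group means the correlation of these 5 probes with the brightest probe ran from -0.71 to 0.86. Of the 6 tested probes other than Chat's that hold the same repeat, 2 rose and 1 fell in AN at 3 W, with a median change of -0.15, where 26.8% of all probes rose. In AN at 5 W 2 rose and 0 fell, with a median of 0.53 against 0.03 over all probes, where 26.4% rose. Whether the 3′ probe read Chat RNA alone was not tested.

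**Figure D3:**
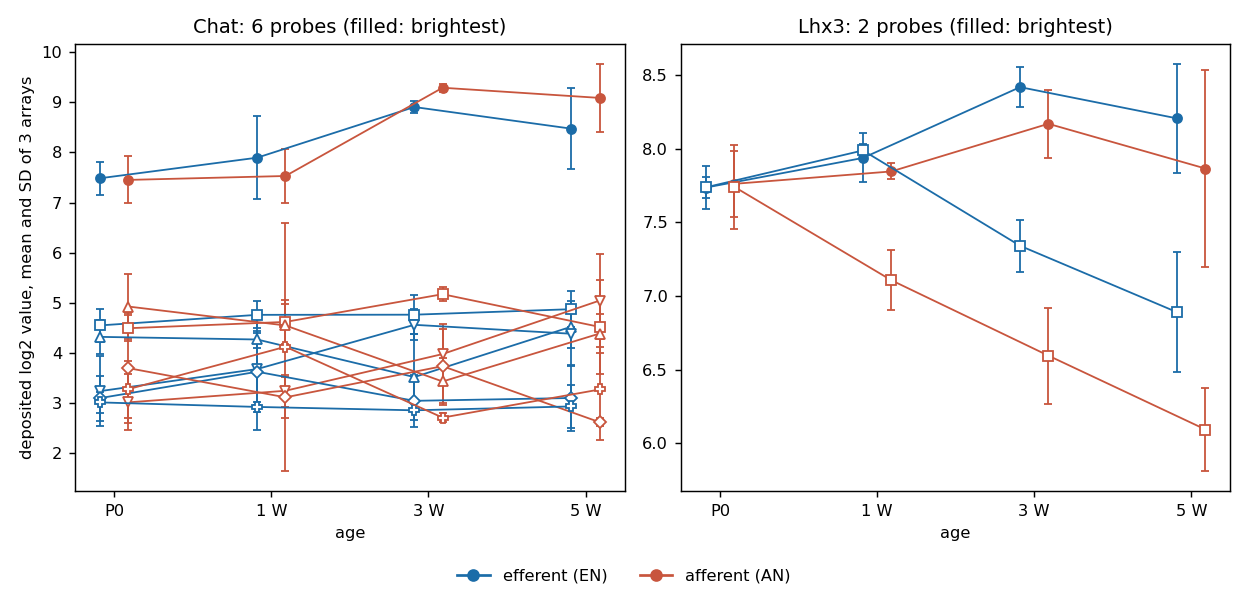
Group means (SD bars, n = 3) in deposited log2 values by age for the 6 Chat probes and the 2 Lhx3 probes, with the brightest probe filled. The brightest Chat probe is higher at 3 W than at P0 in both fibres, and of the Lhx3 probes A_55_P2031272 is lower at 5 W than at P0 (by 1.65 in AN). Levels of different probes cannot be compared.

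Slc18a3, the vesicular acetylcholine transporter, lies inside the span of Chat (GRCm38.p6 chr14:32462437-32464850 within chr14:32408203-32465909), in the arrangement known as the cholinergic gene locus. It was well above background on all 24 arrays through its only probe. In EN it had 7.79, 8.78 and 7.48 at P0, 6.48, 6.41 and 6.50 at 1 W, 7.47, 6.81 and 6.64 at 3 W, and 7.02, 6.61 and 7.06 at 5 W. In AN it had 8.89, 7.10 and 6.96 at P0, 6.40, 5.83 and 6.40 at 1 W, 6.10, 6.66 and 6.83 at 3 W, and 6.36, 5.98 and 6.00 at 5 W. EN and AN did not overlap at 1 W and at 5 W, with EN the higher, and EN was higher in 10 of 12 pairs of a replicate number. The mean difference was 0.46 (95% interval 0.04 to 0.89, unadjusted p = 0.0347, adjusted p = 0.122). The pair that opposed it most was replicate 1 at P0 (-1.10), and without AN replicate 1 at P0 the mean difference was 0.62 (adjusted p = 0.00731).

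Slc18a3 fell from P0 in both fibres at each later age. The fall at 1 W was 1.55 in EN (adjusted p = 0.00797) and 1.44 in AN (adjusted p = 0.0152). At 5 W it was 1.12 in EN (adjusted p = 0.0254) and 1.54 in AN (adjusted p = 0.00371). After normexp the changes were -1.03 in EN and -0.94 in AN at 1 W and -0.96 in AN at 5 W, all still called, and without AN replicate 1 at P0 the last was -0.92 (adjusted p = 0.0267). The EN falls were not called without EN replicate 2 at P0, which was the highest EN array (adjusted p = 0.0526 at 1 W), and those in AN at 1 W and 3 W not without AN replicate 1 at P0. The EN fall at 5 W was also lost without EN replicate 2 at 5 W (adjusted p = 0.0827) and with slide as a block (-1.03, adjusted p = 0.0727), and that in AN at 1 W without AN replicate 2 at 1 W (adjusted p = 0.0756). At 3 W the falls of 1.04 in EN and 1.12 in AN were not called with slide as a block (adjusted p = 0.227 and 0.196), without EN replicate 2 or 3 or without AN replicate 1 of that age. A fit of only the groups compared called no AN fall (adjusted p = 0.107 at 1 W, 0.129 at 3 W and 0.0551 at 5 W). The EN fall at 3 W was also lost in it (adjusted p = 0.0504). On slide 3 the differences from P0 were -1.62 in EN and -0.63 in AN at 1 W, and -1.52 and -1.05 at 5 W. Each set 1 later array against 2 at P0. On slide 1, with 1 array against 1, they were -1.31 in EN and -2.49 in AN at 1 W. Within scan batch 3 they were -0.77 and -2.54 at 5 W, also 1 array against 1.

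Slc5a7, the choline transporter of nerve endings, was dim. It was well above background on 10 of 24 arrays, and it passed the filter only through AN at 1 W, the only group with all 3 arrays above background. In EN it had 5.05, 4.88 and 5.79 at P0, 4.19, 4.01 and 4.44 at 1 W, 4.83, 4.82 and 4.28 at 3 W, and 3.34, 2.53 and 5.44 at 5 W. In AN it had 5.93, 5.26 and 4.80 at P0, 5.26, 4.66 and 5.15 at 1 W, 4.20, 4.00 and 5.63 at 3 W, and 3.79, 4.07 and 4.68 at 5 W. Its fall in EN to 5 W was called (-1.47, adjusted p = 0.0297), with 1 of 3 arrays above background at 5 W and 2 of 3 at P0, and it was not called after normexp (-0.31), in a fit of only the groups compared, or without P0 replicate 3 or 5 W replicate 1 or 2. In AN the change to 5 W was -1.15 (adjusted p = 0.0889), called without EN replicate 3 at 5 W (adjusted p = 0.0210). It was also called after normexp (-0.43, adjusted p = 0.0282) and in a fit of only the groups compared (adjusted p = 0.0443). The same held with slide (-1.58, adjusted p = 0.0157) or scan batch (-1.70, adjusted p = 0.00518) as a block and with array weights (adjusted p = 0.0220). No AN array at 5 W was above background. The other tested probe, A_55_P2025690, had r = 0.923 with the brightest over 8 group means. Its mean went from 5.46 at P0 to 3.05 at 5 W in EN and from 5.79 to 3.06 in AN. At 5 W it was above background on no array. This probe too passed the filter only through AN at 1 W, so its values at that age are no check on a fibre difference. Its means there were 4.24 in EN and 5.65 in AN, with 1 of 3 EN arrays above background. For the brightest probe, the changes to 3 W were -0.60 in EN and -0.72 in AN and were not called. With slide as a block they were called (-2.12 in EN and -2.24 in AN). That fit compared 3 W with P0 only through replicate 3 at 5 W, whose EN value of 5.44 stood above 3.34 and 2.53. At 3 W, 1 of 3 arrays in each fibre was above background.

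Lhx3 was well above background on all 24 arrays through both probes, which disagreed. The brightest ranged from 7.14 to 8.60, with EN at 7.90, 7.69 and 7.62 at P0, 8.09, 7.76 and 7.96 at 1 W, 8.26, 8.51 and 8.48 at 3 W, and 8.13, 7.88 and 8.60 at 5 W. AN had 8.02, 7.67 and 7.60, then 7.90, 7.83 and 7.80, then 8.04, 8.43 and 8.03, and 7.99, 7.14 and 8.46 at 5 W, and the fibres overlapped at every age. The EN rise to 3 W was called (0.68, adjusted p = 0.0247) and turned to -0.08 with slide and to -0.11 with scan batch as a block, and it was not called without EN replicate 2 or 3 at P0 or at 3 W. Its mean EN minus AN difference was 0.16 (95% interval -0.09 to 0.42, adjusted p = 0.390). On the other probe (A_55_P2031272, mm9 chr2:26055746-26055805, minus strand) EN had 7.76, 7.80 and 7.65 at P0 and 7.02, 7.21 and 6.43 at 5 W, and AN 7.42, 7.81 and 7.98 and then 5.95, 6.41 and 5.91. This probe fell to 5 W by 0.85 in EN (adjusted p = 0.00188) and by 1.65 in AN (adjusted p = 2.15e-06), and was higher in EN by 0.60 on average (SE 0.10, adjusted p = 0.000365). The course of Lhx3 differed by probe (r = -0.24 over 8 group means). Mnx1, a defining motor neuron factor, was well above background on none of 24 arrays with either probe. Its brightest probe ranged from 2.58 to 3.11.

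**Figure D4:**
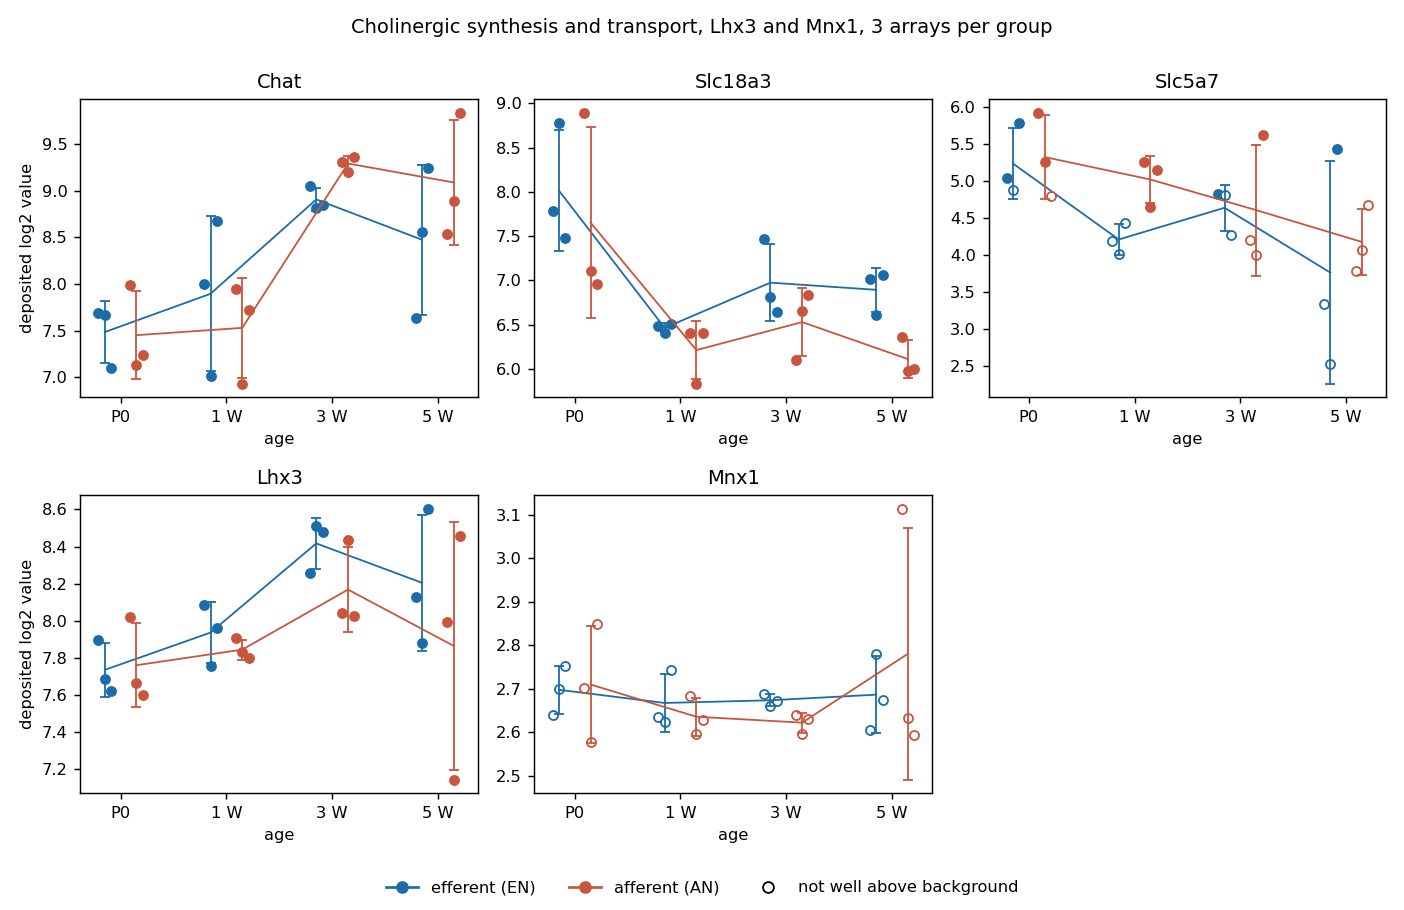
Deposited log2 values of Chat, Slc18a3, Slc5a7, Lhx3 and Mnx1 by age, drawn as for Isl2, with open points not well above background. Slc18a3 is highest at P0 in both fibres while the brightest Chat probe is higher at 3 W than at P0, and every Mnx1 point is open.

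Of the 8 tested genes, 4 fell in EN from P0 to 1 W (27.1% of all probes called, 11.6% as falls), 2 rose and 5 fell to 3 W (55% called, 29% as rises and 26% as falls), and 6 fell to 5 W (54.1% called, 26% as falls). In AN, 2 fell to 1 W (21.7% called, 9.35% as falls), 1 rose and 2 fell to 3 W (51.7% called, 26.8% as rises and 24.9% as falls), and 1 rose and 4 fell to 5 W (50.6% called, 26.4% as rises and 24.2% as falls). The median change of the 8 genes to 5 W was -2.04 in EN and -1.53 in AN, against 0.04 and 0.03 over all tested probes. At P0, 0 of the 8 differed between the fibres by limma, 0 also at an unadjusted p below 0.05, against 0.739% of all probes called. The changes of EN and AN with age were not shown to differ for any of the 8. The interactions gave 0 calls at 1 W, 3 W and 5 W (0.0632%, 0.615% and 1.14% of all probes called), with 2, 1 and 1 of the 8 at an unadjusted p below 0.05. At the thresholds of the study's methods, an unadjusted p below 0.05 with a change over 2-fold, 2 genes were called between the fibres at 3 W (5.64% of all probes), and 2, 1 and 1 for the interactions (3.8%, 4.08% and 4.6%).

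Most markers of sensory neurons moved with Isl2, Ache and Esrrg. Of 9 sensory neuron markers, 7 were lower in EN on average (median difference -2.51), 7 at 1 W (median -4.95), 2 at 3 W, 1 at 5 W and 0 at P0, and without AN replicate 3 at 3 W the 2 calls at 3 W were lost. From P0, 6, 5 and 6 of the 9 fell in EN at 1 W, 3 W and 5 W (median changes -3.68, -3.91 and -4.43), and 0, 0 and 3 fell in AN (0.42, -0.46 and -2.20). Their mean log2 value averaged 10.66 in EN at P0 and 7.79, 7.92 and 7.59 at the later ages, and 10.91, 11.55, 10.33 and 8.98 in AN. The transcription factor Pou4f1 went another way, with a mean EN minus AN difference of 0.01 and calls as a rise in EN at 3 W and in AN at 3 W and 5 W. The level of the 9 markers as the log2 of their sum lay at P0 between 15.39 and 15.57 on EN arrays and between 15.01 and 16.43 on AN arrays, and at 1 W between 13.67 and 15.17 and between 16.13 and 16.28. At 3 W EN lay between 14.89 and 15.48 and AN between 15.12 and 17.62, and at 5 W EN between 14.04 and 15.04 and AN between 15.12 and 15.82. Pou4f1, with means of 13.69 to 15.20, was a large part of these sums. None of the 9 markers was below background on all arrays of any group. As a mean of log2 values, the markers stood at 12.76 on AN replicate 3 at 3 W, the array with the highest Ache and Esrrg, and at 7.33 on AN replicate 3 at 5 W, the AN array with the lowest Isl2, Ache, Chodl and Esrrg. Among the genes whose 8 group means followed Isl2 most closely, of 16897 compared, were Scn10a (r = 0.998), a sodium channel of pain fibres, and Pirt (r = 0.998). The part of sensory neuron RNA in these results was not tested, and on bulk samples fewer cells of a type and less RNA per cell cannot be told apart.

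**Figure D5:**
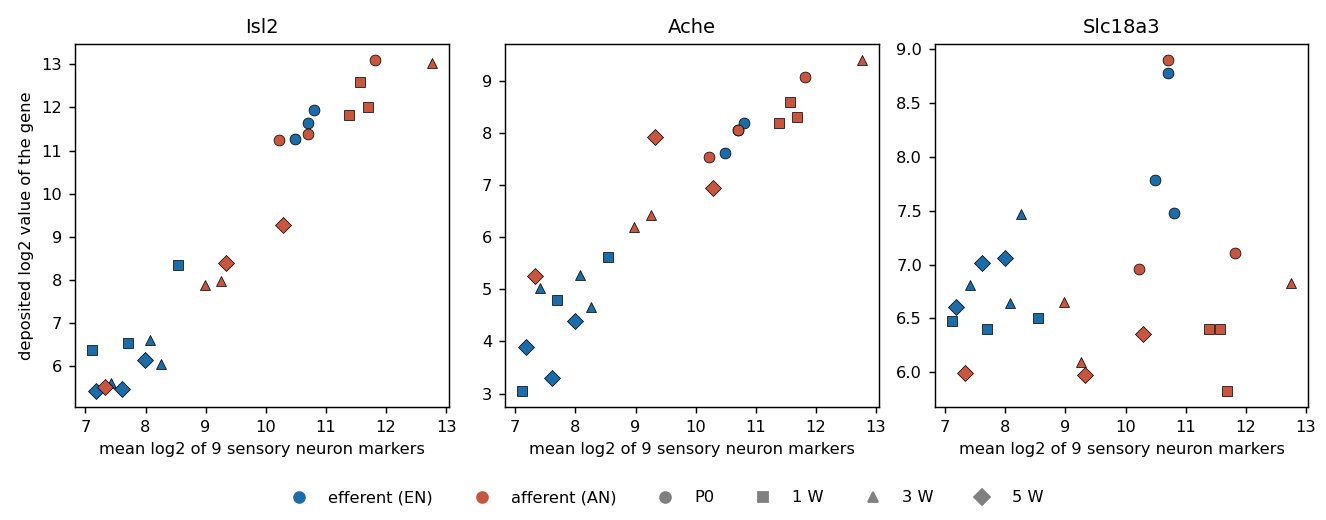
Deposited log2 value of Isl2, Ache and Slc18a3 against the mean log2 value of 9 sensory neuron markers, 1 point per array, with colour for the fibre and shape for the age. Isl2 and Ache rise along the marker level across both fibres up to AN replicate 3 at 3 W (12.76 on the marker axis), while for Slc18a3 the EN arrays lie above the AN arrays at 1 W and at 5 W.

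The other members had different neighbours. Among those of Ache was Slc45a1 (r = 0.997), those of Chodl were Vrk1, F2r and Gar1, and those of Esrrg were Rnf113a1, Aqp1 and Psmc2. Chat stood nearest to Dcaf12l2, 1700029I15Rik and Clk1 (r = 0.995 to 0.996), Slc18a3 to Eya2, Hoxa5 and Faf2 (0.970 to 0.972), Slc5a7 to Dyrk3, Dhx36 and Zfp955a, and Lhx3 to Xrcc6, Zfp97 and Gm34280. Isl2 and Ache followed each other with r = 0.95 and Isl2 and Esrrg with r = 0.95, whereas Chat and Slc18a3 had r = -0.49. These correlations run over 8 group means of the same arrays and are descriptions.

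Markers of other cell types also differed between the fibres. Of 6 pan-neuronal transcripts 5 were lower in EN on average (median -1.77), as were 3 of 4 astrocyte markers (median -1.53) and 3 of 6 spinal interneuron markers (median -1.08). These averages include AN replicate 3 at 3 W. The summed interneuron level was highest on AN replicate 2 at 5 W (12.74, against 10.98 and 10.39 on the other AN arrays of that age), an array on which Ache was 7.92, the highest of its group. By limma 0 of 7 skeletal muscle markers were called on average (1 at an unadjusted p below 0.05, Actn3), and their summed level at 3 W lay between 13.52 and 16.82 on AN arrays and between 13.92 and 15.04 on EN arrays. Of 8 Schwann cell markers 2 were called higher in EN (Mbp and S100b), and none of the 8 was below background on all arrays of a group. Of 5 oligodendrocyte markers 1 was higher (Mag) and 2 lower (Opalin and Olig1). From P0 to 5 W, 8 of 8 Schwann cell markers rose in AN and 7 of 8 in EN. Their part in the results above was not tested.

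Among other genes of the cholinergic pathway (30 listed, 22 tested), 3 were higher in EN on average (10.3% of all probes) and 3 lower (9.13%), with a median of 0.02. The highest was Chrng, the gamma subunit of the fetal muscle acetylcholine receptor, by 1.80 (SE 0.21, adjusted p = 8.5e-06), with EN means of 8.39, 10.60, 9.09 and 7.75 and AN means of 6.34, 8.71, 7.38 and 6.20 from the youngest age to the oldest. It was called higher in EN at each of the 4 ages, but not at 3 W without AN replicate 3. The neuronal receptor subunits Chrna6 (-1.50, adjusted p = 0.0175), Chrna4 (adjusted p = 0.000306) and Chrnb2 (-0.92, adjusted p = 0.0191) were lower in EN, and Chrna4 was above background on no EN array at 3 W and 5 W. Without AN replicate 3 at 3 W, 2 genes were called higher and 3 lower on average. From P0 to 5 W, 4 genes rose and 6 fell in each fibre, where 28.2% of all probes rose and 26% fell in EN and 26.4% and 24.2% in AN. The choline transporter-like gene Slc44a1 rose by 1.87 in EN and by 2.75 in AN. The muscle receptor subunits Chrna1 and Chrnd fell to below background on all EN arrays at 5 W, by at least 2.91-fold and 2.49-fold, and Chrna4 did so by at least 3.38-fold. Of 7 skeletal muscle markers, 4 fell with them in EN from P0 to 5 W (Acta1, Ckm, Mylpf and Tnnt3) and 1 rose (Myh4), with a median change of -2.29, and the part of muscle RNA in these falls was not tested.

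Of 10 motor neuron transcription factors, 9 were tested. On average 3 were higher in EN (10.3% of all probes), among them Etv4 by 0.69 (adjusted p = 5.74e-05). Another 3 were lower (9.13% of all probes), namely Isl1 (adjusted p = 0.00257), Olig2 (adjusted p = 0.0301) and Pou3f1 (-0.68, adjusted p = 0.0198). Olig2 was above background on 1, 0 and 1 of 3 EN arrays at 1 W, 3 W and 5 W. Which cells gave the RNA of Olig2 and Pou3f1 was not tested. From P0 to 5 W, 0 rose and 6 fell in each fibre, where 26% of all probes fell in EN and 24.2% in AN. Lhx1 fell by 2.77 in EN and by 1.97 in AN. Isl1, a LIM factor of motor and sensory neurons, was below background on all EN arrays at 3 W and 5 W, and fell by at least 16.1-fold from P0 to 5 W. Of 14 motor neuron subtype genes, 12 were tested. Averaged over the ages 1 was higher in EN (Npas1, 0.29) and 4 were lower (9.13% of all probes), with Rbfox3 at -2.45, Sv2a at -1.92 and Stk32a at -1.01 (adjusted p = 0.000147, 2.73e-05 and 6.1e-07). The 4th, Wnt7a (adjusted p = 4.58e-05), was above background on no EN array at 5 W. Rbfox3, a splicing factor of mature neurons, and Sv2a, a synaptic vesicle protein, are also made by sensory neurons. Bcl6 rose from P0 to 5 W by 4.09 in EN and by 4.34 in AN.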

How the data were processed

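RNA of EN and AN at 4 ages was hybridised to 24 Agilent 1-colour arrays. The authors deposited a table of quantile normalized log2 values, which was the main measure, and scanner intensity files (Agilent Feature Extraction 10.7.1.1, per the submitters' processing notes), from which the deposited intensity and background flags were taken. Tested probes (36409 of 56605) were those flagged well above background by every array of some group. limma 3.58.1 in R 4.3.3 fitted 8 group means (16 residual degrees of freedom), and a call was a Benjamini-Hochberg adjusted p below 0.05 over all tested probes. The fit was checked on simulated data. The number of arrays limits the precision. Probe levels cannot be compared between genes. EN and AN arrays of a replicate number, which shared a slide, tended to deviate together (r = 0.107 to 0.646 for 12 pairs). EN and AN arrays of different numbers at an age had r = -0.467 to 0.116. At 3 W the pairs had the lowest values (0.184, 0.107 and 0.214), and EN replicate 2 had 0.116 with AN replicate 1. The replicate number was used as a block in an alternative. Other alternatives changed background correction, scaling, filter, slide, scan batch, weights, threshold and arrays.

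Members and gene lists were chosen with earlier results of these data known. The genes named were all members, at most 4 called genes of each other list by size of the difference on average or at 5 W, and the 3 genes most like each member. Some genes that met this rule are not reported here. For lists, Actn3 was named after its value was seen. Leaving an array out for the lists was chosen after seeing the data. Replicates are as labelled. No amino acid sequence was used here.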

Additional observations from a re-analysis of the deposited data

Results flagged for a closer look

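For Stk32a, a gene of the motor neuron subtype list, the change with age was called different between EN and AN, close to the threshold. The EN minus AN difference at 3 W less that at P0 was -1.17 (SE 0.26, limma adjusted p = 0.0465), and at 5 W less that at P0 it was -1.09 (SE 0.26, adjusted p = 0.0492). The EN means were 7.74, 7.56, 6.51 and 6.98 from the youngest age to the oldest, and the AN means 8.12, 8.18, 8.07 and 8.46. The AN mean at 3 W includes AN replicate 3, and the result without that array is not given. Stk32a is shown because it was called, out of the members and the cholinergic and motor neuron lists. Of all tested probes, 0.615% were called for this interaction at 3 W and 1.14% at 5 W.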

How the results depend on the processing

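Counts of members called moved with the setting. With only probes above background on all arrays (4 members tested), the count was 1 on average, 0 at 1 W and 0 at 5 W between the fibres, 2, 4 and 2 in EN at 1 W, 3 W and 5 W against P0, and 3 in AN at 5 W. Slide as a block gave 1 between the fibres at 3 W and 3 in EN at 3 W against P0, and scan batch 2 and 3. Array weights gave 4, 2 and 2 between the fibres at 1 W, 3 W and 5 W, 7 in AN at 3 W and 2 for the interaction at 1 W. The methods' thresholds gave 2 at 3 W and interactions of 2, 1 and 1 at 1 W, 3 W and 5 W, any probe of a gene gave 2 at 3 W and 2 at 5 W, and normexp 0 at 5 W. Only the groups compared gave 0 at 5 W, 1 in AN at 1 W and 2 for the interaction at 1 W. The causes were not tested.

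With EN and AN arrays of a replicate number paired as a block, 2 members were called at 3 W (Ache and Isl2), and no other EN against AN call changed. At 3 W these pairs deviated together least. Over all probes the block gave 14251 calls on average against 7065, and 1401 at P0 against 269. Slide as a block gave 11237 on average. With only the groups compared there were 35 calls at 5 W against 2462, and 0 at P0. Across ages the numbers did not pair samples, and that replicate block called Chat in EN at 5 W (0.99, adjusted p = 0.0480). The Lhx3 rise in EN at 3 W turned to -0.0823 with slide and -0.1074 with scan batch as a block. Leaving out 1 array gave 2 to 3 calls on average, 0 to 0 at P0, 0 to 4 at 1 W, 0 to 2 at 3 W and 0 to 1 at 5 W, in EN 3 to 5, 4 to 7 and 4 to 7, in AN 1 to 2, 2 to 6 and 4 to 6, and interactions 0 to 2, 0 to 0 and 0 to 0. Of 1056 member values under the other alternatives, 994 kept direction and side of the threshold, 25 lost and 35 gained a call, and 2 reversed.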
